A study of Mus musculus with 60 samples.

Results

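Nucleolar ribosome biogenesis was followed through 10 genes in 60 RNA sequencing libraries of mouse fibroblasts. The genes were taken by name: Fbl, Nop56, Nop58, Dkc1, Nolc1, Ncl, Npm1, Polr1a, Polr1b and Ubtf. Each symbol matched 1 identifier among the 56980 genes of each of 2 count tables. All 10 passed the expression filter in both, among 15832 genes tested for reprogramming and 15652 for the inhibitors, and the lowest count of any of them in a library was 182 (Polr1b).

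The study compared fibroblasts with a DNA repair defect (D/KO, which have a single truncated allele of the nuclease subunit ERCC1) with WT fibroblasts during the first days of OSKM reprogramming, and asked separately what TGFb pathway inhibitors do in D/KO cells. Every group held 3 libraries, nothing in the sources used here says that these came from separate animals, and p-values therefore measure a spread that may be technical. In the reprogramming table, D/KO tail tip fibroblasts labelled 4FJ ERCC1 (d/-) came from male mice of 8 weeks and WT tail tip fibroblasts labelled 4FJ (+/-) OCT4-GFP from female mice of 22 weeks, so genotype, sex, age and line cannot be told apart. Cells of both lines, day 0 included, carry a doxycycline-inducible cassette of Oct4, Klf4, Sox2 and Myc at Col1a1 and the rtTA activator at ROSA26. Doxycycline (2 µg/ml) was given for 0, 2 or 4 days, without or with VC, which is 50 µg/ml ascorbic acid and 3 µM of the GSK3 inhibitor CHIR. In the inhibitor table, ERCC1 (d/-) tail tip cells of female mice of 4 weeks were left as control or were given, for 3 days, an inhibitor of the TGFb receptor ALK5 (Repsox at 0.1 µM or A83-01 at 1 µM), DMH-1 (1 µM), which inhibits the BMP receptor ALK2, or Vactosertib (0.1 µM), given in the study as an inhibitor of both receptors. That table also holds ERCC1 (+/+) control cells from tail tip and from skin of female mice of 14 weeks, and a group of WT 4F cells labelled TGFB from female mice of 22 weeks. Cells were at passage 3 or below and kept at 3% oxygen.

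The nucleolus is where ribosomal RNA is made, modified and built into ribosomal subunits. RNA polymerase I, whose catalytic core is formed by the Polr1a and Polr1b proteins, transcribes the ribosomal RNA precursor, and UBF, the product of Ubtf, holds its genes open and loads the polymerase. Small nucleolar RNPs then modify the precursor: fibrillarin (Fbl) with Nop56 and Nop58 methylates riboses, and dyskerin (Dkc1) makes pseudouridine. Nolc1 is a chaperone of these particles, nucleolin (Ncl) binds the precursor, and nucleophosmin (Npm1) carries and stores pre-ribosomal proteins and particles. MYC, the M of OSKM, is a known activator of ribosome biogenesis genes and binds the E-box CACGTG.

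The letters CACGTG, which read the same on both strands, were searched around the start of each gene. In RefSeq promoters of build GRCm38.p6, from 250 bases before to 50 bases after the start, 8 of the 10 genes had an entry, and 0 of these 8 held CACGTG, against 8.09% of 27025 genes. Npm1 and Fbl had no entry and were searched in no window, so that shares here are of 8 genes and not of the 10. A GRCm39 window, from 250 bases before to 1000 bases after the start, was chosen after that result. It differs from the RefSeq windows in build, in annotation (the GENCODE canonical transcript), in start sites and in the genes searched, besides its width. Within the span from 250 bases before to 50 after these starts, 1 of the 8 genes (12.5%) held CACGTG, against 7.85% of 21631 protein-coding genes. It was Nop56, whose copy begins 32 bases before the GENCODE start and is in no RefSeq window of that gene. The whole GRCm39 window held CACGTG in 5 of the 8 genes (62.5%), against 20.1% of the protein-coding genes, and held at least 2 copies in 3 of the 8 (37.5%), against 3.25%. Among the gene lists used further below, the share with CACGTG ran from 22.2% (proliferation) to 95.7% (other Myc-responsive growth genes). It was 66.7% for small subunit processome and 40% for large subunit assembly genes. The share with at least 2 copies ran from 5.56% (proliferation) to 60.9% (other Myc-responsive growth genes). Ncl had 5 copies, Nop56 had 3, Dkc1 had 2, Nop58 and Polr1b had 1 each, and Nolc1, Polr1a and Ubtf had 0. Of these 12 copies, 9 lay in introns. The intronic stretches are printed here 5′ to 3′ on the strand of the gene, with about 30 bases on either side and CACGTG in capitals, to show where in the letters the intronic copies lie, which number 5 in Ncl, 2 in Dkc1 and 1 each in Nop58 and Nop56.
Ncl, intron 1, chr1:86286477-86286587, minus strand: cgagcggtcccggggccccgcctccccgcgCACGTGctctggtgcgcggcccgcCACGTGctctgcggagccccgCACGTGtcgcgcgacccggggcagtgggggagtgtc
Ncl, intron 1, chr1:86286319-86286421, minus strand: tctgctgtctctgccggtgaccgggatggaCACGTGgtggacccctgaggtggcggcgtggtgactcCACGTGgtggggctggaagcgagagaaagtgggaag
Dkc1, intron 1, chrX:74140210-74140302, plus strand: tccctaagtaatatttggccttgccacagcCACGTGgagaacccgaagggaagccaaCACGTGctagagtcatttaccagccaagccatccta
Nop58, intron 1, chr1:59724512-59724577, plus strand: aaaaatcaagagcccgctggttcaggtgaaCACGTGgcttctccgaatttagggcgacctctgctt
Nop56, intron 2, chr2:130116692-130116757, plus strand: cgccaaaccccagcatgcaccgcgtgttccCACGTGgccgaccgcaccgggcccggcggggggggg
A match is a run of letters and was not tested as a binding site.

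The 36 reprogramming libraries held 16538374 to 18484951 counts each and the 24 inhibitor libraries 17102639 to 30599138. Each level given here is TMM-scaled CPM, a share of the library total after that total is adjusted by a TMM factor. Ercc1, the gene that defines the D/KO cells, averaged 14.2 CPM at D/KO day 0 and 20.6 CPM at WT day 0, but 20.6 CPM in D/KO control and 18.04 CPM in WT tail tip control cells, and a truncated allele can still be counted. The 4 leukocyte and macrophage markers summed to 15.5 to 35.2 CPM at WT day 0, where Adgre1 and Csf1r averaged 7.92 and 10.4 CPM, against 4.38 to 8.13 CPM at D/KO day 0, and Ptprc, the defining leukocyte marker, did not exceed 2.38 CPM in any library. The 3 melanocyte markers summed to at most 2.33 CPM in a reprogramming and 4.38 CPM in an inhibitor library, and the 4 pluripotency markers to at most 0.846 and 0.830 CPM. The lowest level of Col1a1, a fibroblast collagen, was 10200 CPM. Endothelial markers separated the lines: the adhesion genes Pecam1 and Cdh5 averaged 205 and 279 CPM at D/KO day 0, against 0.142 and 0.438 CPM at WT day 0. Some libraries stood apart from their groups. The 82 ribosomal protein genes summed to 129514 CPM in skin control library 1, against 48958 and 54213 CPM in libraries 2 and 3, and to 69772 CPM in Repsox library 2, against 35545 and 33924 CPM. In bulk RNA, a change in the share of a cell type and a change in RNA per cell cannot be told apart.

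Doxycycline without VC went with a rise in a few of the 10 genes. In D/KO cells, 5 of 10 were called higher at day 2 than at day 0 (edgeR adjusted p under 0.05), where 14.3% of all genes tested were called higher, and 2 of 10 at day 4, where 18.3% were, so that the day 4 share lay near that of all genes. The median log2 fold change of the 10 was 0.33 at day 2 and 0.12 at day 4, and that of all genes 0.00 and 0.00. At day 2 the 5 were Npm1, Nolc1, Dkc1, Fbl and Nop58. Npm1 read 482, 415 and 432 CPM at day 0, 633, 619.9 and 618 at day 2 and 593, 670.1 and 551 at day 4, so that every library with doxycycline lay above every library of day 0. It rose 1.41-fold at day 2 (edgeR adjusted p = 0.000504) and 1.37-fold at day 4 (edgeR adjusted p = 0.000938). Nolc1, the snoRNP chaperone, read 38.1, 42.8 and 38.5 CPM at day 0, 54.5, 51.5 and 57.5 at day 2 and 41.4, 38.9 and 54.9 at day 4, and the day 4 libraries overlapped those of day 0. Polr1b was the other gene called at day 4 (log2 fold change 0.35 ± 0.13 s.e., edgeR adjusted p = 0.0302), and its day 4 libraries (25.9, 28.3 and 22.1 CPM) overlapped those of day 0 (17.4, 19.3 and 23.0 CPM). The count at day 2 was 3 without D/KO day 0 library 2 or without day 2 library 1 or 2, and the count at day 4 was 1 without day 0 library 2 or without day 4 library 1 or 2. Without the expression filter, or with only the groups compared, it was 1 at day 4. By library totals, which moved the median of all genes to 0.10 at day 2 and 0.17 at day 4 on the log2 scale, 9 of 10 were higher at day 2 (19.4% of all genes) and 4 at day 4 (27.0%). Npm1 and Nolc1 at day 2 and Npm1 at day 4 were called in every alternative fit. Between day 2 and day 4, 0 of the 10 were called by edgeR or by DESeq2 (9.57% of all genes were called by edgeR in either direction), 3 had an unadjusted p under 0.05, and 2 of 10 were called without day 4 library 3. Of the 15832 genes tested, 3244 had an unadjusted p under 0.05.

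In WT cells, 2 of 10 genes were called higher at day 2 (6.26% of all genes tested) and 3 of 10 at day 4 (11.7%). Fbl, the ribose methyltransferase, read 32.3, 36.8 and 33.8 CPM at day 0, 37.3, 59.9 and 46.8 at day 2 and 35.7, 32.7 and 30.4 at day 4, above day 0 in all 3 libraries of day 2 (log2 fold change 0.49 ± 0.12 s.e., edgeR adjusted p = 0.00713) and overlapping it at day 4. Npm1 read 356, 424 and 412 CPM at day 0, 432, 568 and 493 at day 2 (log2 fold change 0.32 ± 0.11 s.e., edgeR adjusted p = 0.0456) and 352, 349 and 343 at day 4. Its day 2 libraries lay above day 0 and its day 4 libraries below it, with a change at day 4 of -0.19 ± 0.11 s.e. (edgeR adjusted p = 0.203). The RNA polymerase I subunits were called at day 4 and not at day 2. Polr1b read 13.9, 12.8 and 13.4 CPM at day 0, 15.9, 15.1 and 16.1 at day 2 and 22.5, 22.7 and 23.1 at day 4, a 1.7-fold rise by day 4 (edgeR adjusted p = 3.33e-05). Polr1a rose 1.32-fold by day 4 (edgeR adjusted p = 0.00927) and Dkc1 1.31-fold (edgeR adjusted p = 0.0233). From day 2 to day 4, 4 of 10 were called (21.5% of all genes in either direction): Npm1 and Fbl fell, by 0.52 and 0.54 on the log2 scale, and Polr1a and Polr1b rose, by 0.39 and 0.53. The day 2 count was 0 without WT day 0 library 1 or WT day 2 library 2, and 1 without WT day 0 library 3 or WT day 2 library 3. From day 2 to day 4 the count was 2 without WT day 2 library 2, which had the highest Fbl and Npm1 of its group, and of these 1 was higher and 1 lower. With only the groups compared in the fit, the counts were 0 at day 2 and 6 at day 4, of which 5 were higher and 1, Npm1, was lower.

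Cell type marker lists moved between days 0 and 4 without VC as well. The 10 fibroblast markers summed to between 71400 and 112500 CPM at D/KO day 0 and between 28970 and 30740 CPM at day 4, where 8 of 10 were lower and 1 higher, and to between 48810 and 50130 and between 40500 and 42120 CPM in WT cells, where 3 were lower and 2 higher. The 6 keratinocyte markers summed to 2.12 to 3.35 CPM at D/KO day 0 and 43.0 to 58.4 CPM at day 4, and to 4.31 to 5.75 and 4.04 to 4.82 CPM in WT cells. The 4 endothelial markers summed to 512 to 599 CPM at D/KO day 0 and 302 to 327 CPM at day 4, and to 14.4 to 17.2 and 95.3 to 95.7 CPM in WT cells, so that their sum was lower at day 4 in D/KO and higher in WT libraries. The 18 proliferation genes summed to 321 to 406 CPM at D/KO day 0, 497 to 640 at day 2 and 393 to 479 at day 4. In WT cells they summed to 166 to 192, 207 to 237 and 174 to 191 CPM. Mki67 was called higher at D/KO day 2 (log2 fold change 0.97, edgeR adjusted p = 0.00408) and not at day 4. The part of these in the counts of the 10 genes was not tested. The leukocyte and macrophage markers summed to 2.17 to 3.24 CPM at D/KO day 4 and 13.5 to 14.8 CPM at WT day 4, and the skeletal muscle markers to 11.2 to 14.0 and 4.08 to 6.62 CPM.

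**Figure D1:**
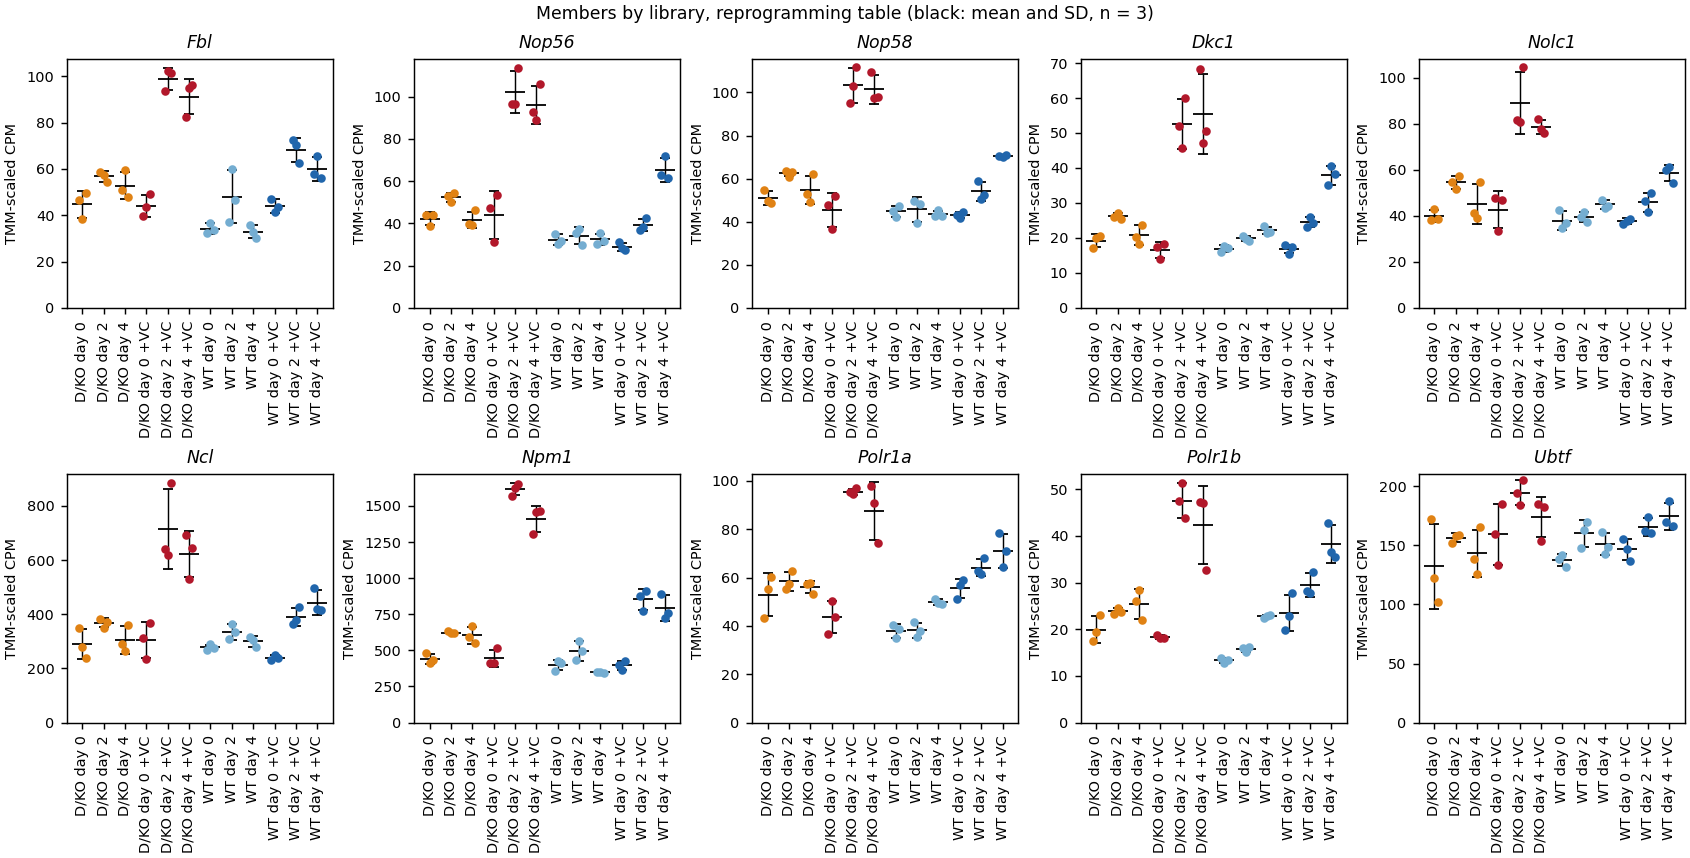
TMM-scaled CPM (y axis, from 0) of each of the 10 genes in the 36 libraries of the reprogramming table, by group (x axis); colored points are libraries, black bars are mean and s.d. (n = 3). In 9 genes the D/KO libraries of days 2 and 4 plus VC (dark red) lie above all 3 libraries of D/KO day 0 plus VC, and Ubtf overlaps. Overlap was not counted over all genes.

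With VC the same doxycycline treatment went with a rise of nearly the whole group in D/KO cells. At day 2, 9 of 10 genes were higher than at day 0 with VC (23.8% of all genes tested were called higher), and the same 9 of 10 were higher at day 4 (27.9%). Only Ubtf missed the threshold, at both days. The median log2 fold change of the 10 was 1.19 at day 2 and 1.08 at day 4, beside -0.01 and 0.01 for all genes tested. The 9 were also called in every alternative fit and without any 1 library.

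The box C/D methylation core rose together in these D/KO cells, all given VC. Fbl read 39.8, 43.5 and 49.1 CPM at day 0, 93.6, 102 and 101 CPM at day 2, 82.6, 94.9 and 96.3 CPM at day 4, a 2.24-fold rise at day 2 (edgeR adjusted p = 6.99e-10) and a 2.07-fold rise at day 4 (edgeR adjusted p = 4.71e-09). Nop56 read 47.1, 31.4 and 53.7 CPM at day 0, 96.6, 96.3 and 113 CPM at day 2, 92.7, 89.1 and 106 CPM at day 4, a 2.32-fold rise at day 2 (edgeR adjusted p = 6.11e-10) and a 2.18-fold rise at day 4 (edgeR adjusted p = 2.16e-09). Nop56 and Nop58 form the scaffold on which fibrillarin sits. Nop58 read 47.9, 36.8 and 52.0 CPM at day 0, 95.1, 103 and 112 CPM at day 2, 109, 97.2 and 98.1 CPM at day 4, a 2.26-fold rise at day 2 (edgeR adjusted p = 1.65e-11) and a 2.23-fold rise at day 4 (edgeR adjusted p = 1.61e-11). In all 3 genes every library of days 2 and 4 lay above every library of day 0, and the levels of the 2 later days overlapped. Dkc1, the pseudouridine synthase of the H/ACA particles and a telomerase component, had the largest rise of the 10 at day 4. Dkc1 read 17.5, 14.1 and 18.4 CPM at day 0, 52.1, 45.8 and 60.05 CPM at day 2, 68.4, 47.0 and 50.6 CPM at day 4, a 3.15-fold rise at day 2 (edgeR adjusted p = 4.05e-13) and a 3.32-fold rise at day 4 (edgeR adjusted p = 7.17e-14).

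The chaperone and scaffold proteins followed. Nolc1 read 47.9, 33.3 and 46.9 CPM at day 0, 81.6, 80.9 and 105 CPM at day 2, 81.9, 77.7 and 75.8 CPM at day 4, a 2.08-fold rise at day 2 (edgeR adjusted p = 4.85e-09) and a 1.84-fold rise at day 4 (edgeR adjusted p = 1.56e-07). Ncl read 312, 236 and 369 CPM at day 0, 639, 620.2 and 886 CPM at day 2, 694, 529.5 and 644 CPM at day 4, a 2.34-fold rise at day 2 (edgeR adjusted p = 7.73e-09) and a 2.04-fold rise at day 4 (edgeR adjusted p = 1.91e-07). Neither gene overlapped its day 0 level in any library of day 2 or day 4. Npm1 had the largest rise of the 10 at day 2. Npm1 read 412, 409.6 and 513 CPM at day 0, 1571, 1622 and 1654 CPM at day 2, 1308, 1457 and 1468 CPM at day 4, a 3.63-fold rise at day 2 (edgeR adjusted p = 3.1e-16) and a 3.17-fold rise at day 4 (edgeR adjusted p = 2.45e-15). Day 2 lay above day 4 without overlap, a difference that was not called (log2 fold change -0.20 ± 0.11 s.e., edgeR adjusted p = 0.258).

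Of the RNA polymerase I genes, the subunits rose and the transcription factor did not pass the test. Polr1a read 36.8, 50.2 and 43.9 CPM at day 0, 95.5, 94.4 and 96.9 CPM at day 2, 98.0, 90.8 and 74.5 CPM at day 4, a 2.19-fold rise at day 2 (edgeR adjusted p = 2.29e-10) and a 2.01-fold rise at day 4 (edgeR adjusted p = 1.98e-09). Polr1b read 18.8, 18.1 and 18.2 CPM at day 0, 47.4, 51.4 and 43.9 CPM at day 2, 47.2, 47.1 and 32.7 CPM at day 4, a 2.59-fold rise at day 2 (edgeR adjusted p = 6.3e-11) and a 2.3-fold rise at day 4 (edgeR adjusted p = 8.05e-10). These 2 genes encode the largest and second largest subunit. Ubtf read 159.6, 134 and 185 CPM at day 0, 194, 184 and 205 CPM at day 2, 185, 154 and 183 CPM at day 4. The Ubtf groups overlapped, with a log2 fold change of 0.29 ± 0.13 s.e. at day 2 (edgeR adjusted p = 0.0567) and 0.13 ± 0.13 s.e. at day 4 (edgeR adjusted p = 0.417). Ubtf was called at both days when counts were scaled by library totals, which moved the median of all genes to 0.24 at day 2 and 0.38 at day 4 on the log2 scale, and also with day 0 without VC as the baseline.

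In WT cells with VC the same genes were called, fewer of them at day 2. At day 2, 6 of 10 were called higher than at day 0 with VC (13.8% of all genes tested), and 9 of 10 at day 4 (22.7%), Ubtf again excepted. Nop56 read 31.2, 28.2 and 27.6 CPM at day 0, 36.7, 38.4 and 42.6 CPM at day 2, 62.8, 71.8 and 61.6 CPM at day 4, and rose 1.35-fold at day 2 and 2.25-fold at day 4 (edgeR adjusted p = 2.4e-09). Dkc1 read 17.9, 15.5 and 17.3 CPM at day 0, 23.2, 26.1 and 24.3 CPM at day 2, 35.04, 40.5 and 38.2 CPM at day 4, with a 2.24-fold rise at day 4 (edgeR adjusted p = 2.27e-09). In both genes the 3 days did not overlap. Npm1 read 399, 364 and 425 CPM at day 0, 878, 773 and 911 CPM at day 2, 893, 721 and 762 CPM at day 4, a 2.16-fold rise at day 2 (edgeR adjusted p = 3.09e-10) with days 2 and 4 overlapping. Fbl read 47.2, 41.2 and 43.5 CPM at day 0, 72.4, 70.2 and 62.5 CPM at day 2, 57.9, 65.7 and 56.2 CPM at day 4, 1.55-fold higher at day 2 and 1.36-fold at day 4 (edgeR adjusted p = 0.00338). The subunit Polr1a had the smallest rise among the genes called, from 51.3, 56.8 and 58.9 CPM to 78.3, 64.2 and 70.9 CPM at day 4 (log2 fold change 0.35 ± 0.11 s.e., edgeR adjusted p = 0.0104), and it lost its call without WT day 0 plus VC library 1 or WT day 4 plus VC library 1. The others, Ncl, Nop58, Nolc1 and Polr1b, rose between 1.55-fold and 1.85-fold by day 4. For each of the 10 genes, all 3 libraries of each day lay above all 3 of day 0 plus VC. Such overlap was not counted over all genes, of which 8107 of 15832 tested had an unadjusted p under 0.05 at day 4. Between day 2 plus VC and day 4 plus VC, 5 of 10 were called in WT cells (20.1% of all genes in either direction), each of them higher: Nop56 (0.74 on the log2 scale), Dkc1 (0.63), Nop58 (0.38), Polr1b (0.38) and Nolc1 (0.35). That count was 3 without WT day 2 plus VC library 1 or WT day 4 plus VC library 1, and 2 without WT day 2 plus VC library 2. In D/KO cells, 0 of 10 were called between these days by edgeR or DESeq2 (15.6% of all genes by edgeR), and 0 had an unadjusted p under 0.05. Of the 15832 genes tested, 4053 had such a p.

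**Figure D2:**
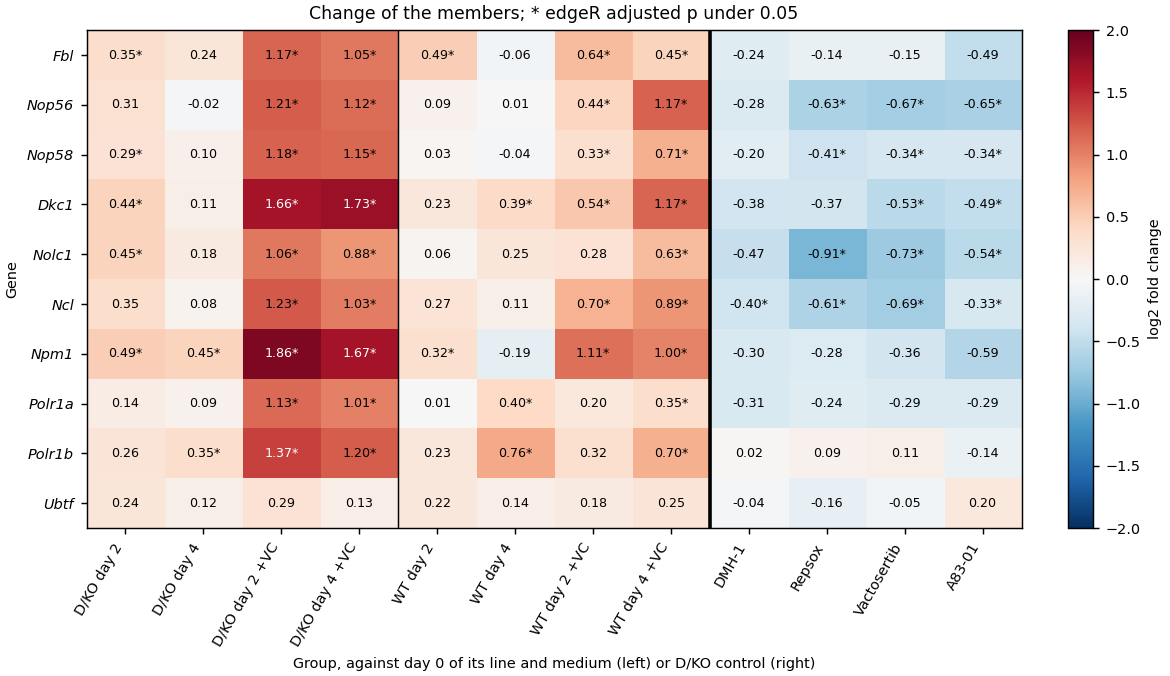
Log2 fold change (color and printed value) of the 10 genes (rows) in 8 doxycycline groups against day 0 of the same line and medium and in 4 inhibitor groups against D/KO control (columns); an asterisk marks an edgeR adjusted p under 0.05. The D/KO columns with VC hold values from 0.88 to 1.86 outside Ubtf, and the inhibitor columns hold negative values for most genes.

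The contribution of VC was read by comparing the groups of the same day. At day 0, before doxycycline, 0 of 10 were called in D/KO cells by edgeR or DESeq2 (12.1% of all genes were called higher by edgeR), 2 had an unadjusted p under 0.05, and without D/KO day 0 library 1 or day 0 plus VC library 2 there were 2 calls in opposite directions, Ubtf higher and Polr1a lower. Of the 15832 genes tested, 5697 had an unadjusted p under 0.05 in these D/KO cells. In WT cells at day 0, 3 of 10 were higher with VC (15.1% of all genes): Polr1b (1.75-fold), Polr1a (1.47-fold) and Fbl (1.28-fold). These day 0 directions depended on the scaling. By library totals, which moved the median of all genes by -0.29 in WT and -0.18 in D/KO cells on the log2 scale, 1 of 10 was higher (Polr1b) and 4 were lower (Ncl, Npm1, Nop56 and Nop58) in WT cells, where 34.2% of all genes were called lower, and 0 were higher and 3 lower in D/KO cells, where 25.9% were. At day 2, 9 of 10 were higher with than without VC in D/KO cells (11.1%), by 1.63-fold for Polr1a to 2.59-fold for Npm1, and 4 of 10 in WT cells (13.5%), which were Npm1, Fbl, Polr1a and Polr1b. At day 4, 9 of 10 were higher with VC in D/KO cells (16.8%) and 9 of 10 in WT cells (12.0%). In WT cells at day 4, Npm1 read 352, 349 and 343 CPM without and 893, 721 and 762 CPM with VC, 2.27-fold (edgeR adjusted p = 1.56e-10). Ubtf was below the threshold in each of these 6 comparisons, although DESeq2 called it at D/KO day 2, with log2 fold changes between 0.05 and 0.32.

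In D/KO cells given doxycycline alone for 4 days, all 10 were lower than in cells given it with VC for 2 days (15.0% of all genes tested were called lower), in every library and in every alternative fit. The difference ran from -0.44 for Ubtf to -1.42 for Npm1 on the log2 scale.

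Whether the 2 lines differed in their change was tested directly as an interaction. Without VC, 0 of 10 changes were called larger in D/KO than in WT cells at day 2 by edgeR or DESeq2 (3.43% of all genes tested were by edgeR), with 1 unadjusted p under 0.05, and 1 of 10 at day 4 (7.27%), which was Npm1 (0.64 ± 0.15 s.e. on the log2 scale, edgeR adjusted p = 0.003). At day 2, 3002 of the 15832 genes tested had an unadjusted p under 0.05. With VC, 8 of 10 changes were larger in D/KO cells at day 2 (6.86% of all genes tested). The largest differences were in Dkc1 (1.12 ± 0.18 s.e., edgeR adjusted p = 3.22e-05), Polr1b (1.05 ± 0.18 s.e., edgeR adjusted p = 9.31e-05) and Polr1a (0.93 ± 0.16 s.e., edgeR adjusted p = 7.54e-05). Ncl (0.53 ± 0.20 s.e., edgeR adjusted p = 0.079) and Ubtf (0.11 ± 0.18 s.e.) were not called. At day 4 plus VC, 6 of 10 changes were larger in D/KO cells (13.9%), namely Npm1, Polr1a, Fbl, Dkc1, Polr1b and Nop58, with differences from 0.45 to 0.67. Nop56 differed by -0.05 ± 0.18 s.e. at day 4. In WT cells with VC it averaged 29.0 CPM at day 0, 39.25 at day 2 and 65.4 at day 4. The day 4 count was 3 without D/KO day 0 plus VC library 2 or without D/KO day 4 plus VC library 1. It was also 3 with only the groups compared in the fit. Npm1, Fbl and Polr1a were called in every alternative that was fitted. Day 0 without VC as baseline was not fitted for the differences between lines. The Fbl call at day 2 was lost in 8 of the 12 fits that left out 1 library. Both days with VC were read from day 0 plus VC. There, Polr1a, Polr1b and Fbl were called higher than without VC in WT cells only. Polr1a averaged 37.9 CPM without and 55.7 CPM with VC at WT day 0, and 52.9 and 43.6 CPM at D/KO day 0. Polr1b averaged 13.4 and 23.5 CPM, and 19.9 and 18.4 CPM. At day 4 plus VC, Polr1a and Polr1b averaged 71.2 and 38.2 CPM in WT and 87.7 and 42.3 CPM in D/KO cells.

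**Figure D3:**
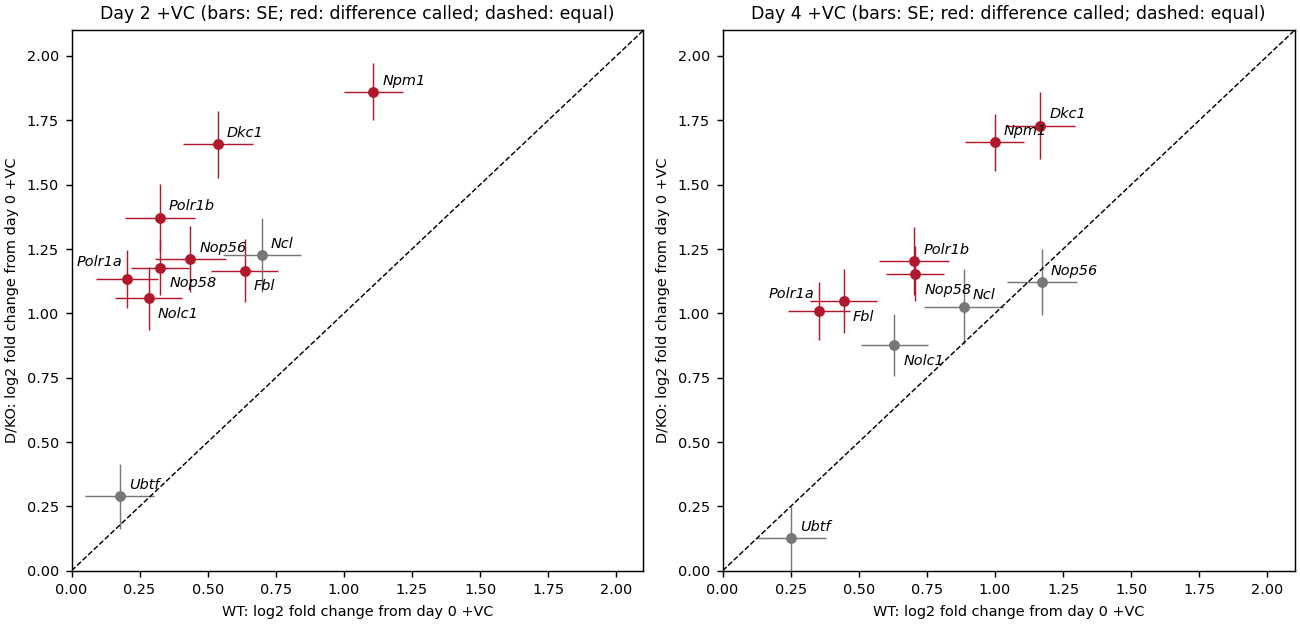
Log2 fold change from day 0 plus VC in WT cells (x axis) and D/KO cells (y axis) of the 10 genes at day 2 (left) and day 4 (right) plus VC; bars are s.e., the dashed line marks equal change, and red marks genes whose difference passed an edgeR adjusted p of 0.05. At day 2 all 10 points lie above the line, and at day 4 Nop56 and Ubtf lie below it.

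The lines also differed before doxycycline. At day 0 without VC, 4 of 10 genes were higher in D/KO than in WT cells (22.1% of all genes tested were called higher, so that the share of the 10 is read beside a large background). Polr1b read 17.4, 19.3 and 23.0 CPM in D/KO and 13.9, 12.8 and 13.4 CPM in WT libraries (1.49-fold, edgeR adjusted p = 0.00073). Polr1a was 1.4-fold, Nop56 1.31-fold and Fbl 1.3-fold higher, without overlap between the lines. Scaling by library totals, or leaving out D/KO day 0 library 3, left 2 of 10. The 4 endothelial markers summed to 512 to 599 CPM in these D/KO libraries and to 14.4 to 17.2 CPM in the WT libraries, and their part in the difference was not tested.

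Other genes of the pathway, taken from lists of its parts and counted without the 10, were called higher with VC as well. In D/KO cells at day 4 plus VC, 33 of 36 small subunit processome genes, 36 of 40 large subunit assembly genes and 70 of 82 cytosolic ribosomal protein genes were called higher and 0 in any of these 3 lists lower, beside 27.9% of all genes tested called higher, with median log2 fold changes of 0.66, 0.74 and 0.65 against 1.08 for the 10 genes and 0.01 for all genes. Without VC at day 4 the same lists had 3, 6 and 4 genes higher and 1, 1 and 2 lower, beside 18.3% of all genes tested called higher. That ribosomal protein count rested on single libraries, with 20 higher and 0 lower without D/KO day 4 library 3, 0 higher and 4 lower without library 2, and 28 higher by library totals. In the processome list, the lowest adjusted p-values at day 4 plus VC belonged to Utp14a, which went from 13.6 to 35.7 CPM (edgeR adjusted p = 1.05e-11), and to Rcl1 and Nob1. In the large subunit list they belonged to Rsl1d1, from 59.9 to 143 CPM (edgeR adjusted p = 5.34e-13), and to Rrp1b and Gnl3l. Among ribosomal proteins they belonged to Rpl13a, Rpl6 and Rpl4, Rpl13a from 46.2 to 98.4 CPM (edgeR adjusted p = 4.11e-08).

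The partners closest to the 10 were more divided. Of 13 further snoRNP core and assembly genes, 7 were called higher and 1 lower in D/KO cells at day 4 plus VC, with a median of 0.48. Naf1, an H/ACA assembly factor, went from 14.5 to 27.3 CPM (edgeR adjusted p = 1.52e-06), and Snu13, the remaining core protein of box C/D particles, from 57.3 to 90.2 CPM (edgeR adjusted p = 8.79e-06). The one that fell was Znhit6, a box C/D assembly factor, from 164 to 64.3 CPM (edgeR adjusted p = 1.55e-12). Of 13 further RNA polymerase I genes, 7 were higher and 1 lower, with a median of 0.33. The subunit genes Polr1f, Polr1e and Polr1c rose, Polr1f from 14.5 to 30.4 CPM (edgeR adjusted p = 1.8e-08).

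In WT cells at day 4 plus VC, fewer genes of the lists were called: 20 of 36 processome genes, 27 of 40 large subunit genes and 18 of 82 ribosomal protein genes were called higher, with 0, 1 and 1 lower. Of all genes tested 22.7% were called higher there, a share that the ribosomal protein genes did not exceed. Nat10, Rcl1 and Wdr43 led the processome list, Nat10 from 25.00 to 44.6 CPM (edgeR adjusted p = 1.08e-07). Rrp1b, Nvl and Rsl1d1 led the large subunit list, and Rpl4, Rpl3 and Rpl10a the ribosomal proteins. Of the 13 further snoRNP genes 4 were higher and 1 lower, with Naf1, Shq1 and Nufip1 in front. Of the 13 further RNA polymerase I genes 7 were higher, led by Taf1d, a factor of the promoter complex, from 11.4 to 32.5 CPM (edgeR adjusted p = 1.18e-07), and by Polr1f. The one that fell was Polr1h, from 16.7 to 9.29 CPM (edgeR adjusted p = 0.000399). The WT ribosomal protein list had more genes higher at day 2 plus VC (54 of 82, beside 13.8% of all genes) than at day 4 plus VC, and Npm1 and Fbl also had higher mean levels at day 2 than at day 4.

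**Figure D4:**
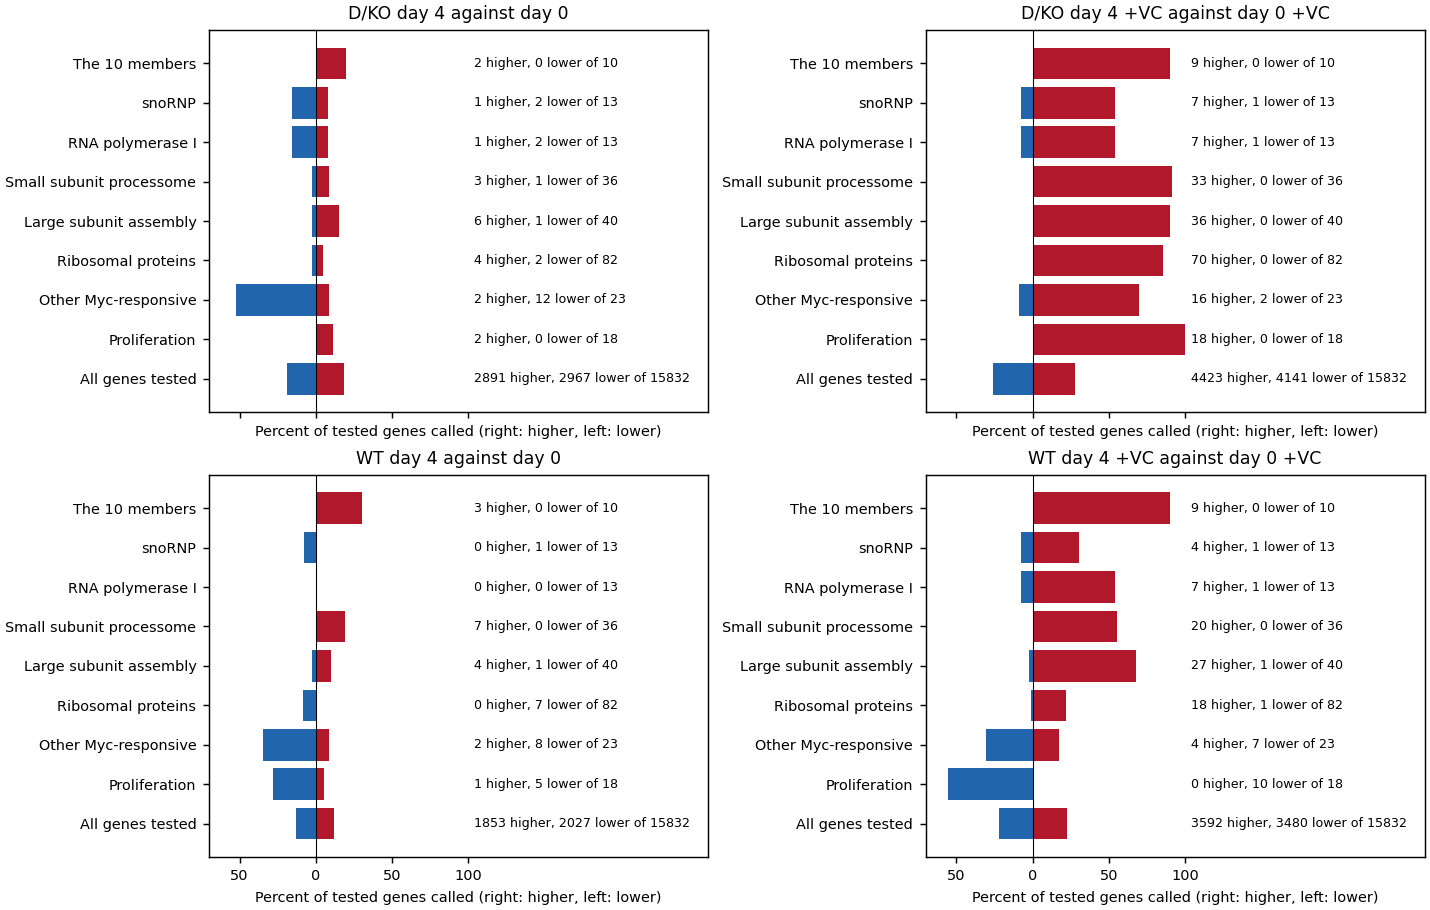
Percent of tested genes called higher (red, to the right of 0) or lower (blue, to the left) in the 10 genes, in 7 lists counted without them and in all genes tested, for day 4 against day 0 in D/KO and WT cells without and with VC. With VC, 9 of the 10 were higher in both lines, and the proliferation list was higher in 18 of 18 genes in D/KO cells and lower in 10 of 18 in WT cells, where 13 of 18 were higher against day 0 without VC.

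Several other measures moved with these genes, and their part in the results was not tested. Myc counts, which can include reads from the transgene, averaged 65.3 ± 3.09 CPM at D/KO day 0 and 36.3 ± 4.72 CPM at day 0 plus VC. They rose to 254 ± 8.15 CPM at day 2 and 329 ± 11.6 CPM at day 2 plus VC, and stood at 237 ± 48.8 and 343 ± 34.4 CPM at day 4 without and with VC. Myc was thus called 1.96 higher on the log2 scale at D/KO day 2 without VC, where the 10 genes had a median of 0.33. In WT cells Myc averaged 36.2 ± 1.49 CPM at day 0, 135 ± 4.58 at day 2 and 171 ± 7.89 at day 4, and with VC 37.4 ± 3.47, 164 ± 6.64 and 260.2 ± 25.8 CPM. The counts of Pou5f1 (Oct4), Sox2 and Klf4 can likewise hold reads of the cassette and of the cells' own genes. Pou5f1 and Sox2 averaged 0.835 and 3.18 CPM at D/KO day 0 and 1.96 and 2.29 CPM at WT day 0, and Klf4 was at 94.6 and 193 CPM there without doxycycline, and at 69.9 and 90.3 CPM at day 0 plus VC. Klf4 was not called at WT day 4 without VC (log2 fold change 0.25, edgeR adjusted p = 0.335). In the same order the 3 genes averaged 64.0, 94.1 and 210.1 CPM at D/KO day 4 without VC, and 119, 147 and 320.1 CPM at day 4 plus VC. At WT day 4 they averaged 60.5, 83.8 and 229 CPM, and at WT day 4 plus VC 96.6, 131 and 283 CPM.

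The genes of the Myc and Max network, Myc among them, moved in both directions, as did all genes tested, of which 27.9% were called higher and 26.2% lower in D/KO cells at day 4 plus VC. The WT shares were 22.7% higher and 22.0% lower. Of the 12 tested, Myc included, 5 were called higher and 2 lower in D/KO cells at day 4 plus VC, Mxi1, a Myc antagonist, from 36.1 to 72.8 CPM (edgeR adjusted p = 6.07e-09) and Mxd1, a further antagonist, from 15.8 to 6.36 CPM (edgeR adjusted p = 8.08e-08). In WT cells 2 were lower and 4 higher, which were Myc, Mycn, Mxi1 and Mnt. Of 23 other Myc-responsive growth genes, 16 were higher and 2 lower in D/KO cells at day 4 plus VC, Ppat, the first enzyme of purine synthesis, from 14.3 to 58.8 CPM (edgeR adjusted p = 1.95e-14), with Pa2g4 and Hspd1 next. In WT cells 4 of the 23 were higher and 7 lower at day 4 plus VC, but 10 higher and 5 lower with day 0 without VC as baseline (20.3% and 18.9% of all genes), and 8 higher and 3 lower when scaled by library totals. Ppat rose there from 12.3 to 22.5 CPM (edgeR adjusted p = 8.26e-06), while Odc1, the first enzyme of polyamine synthesis, fell from 185 to 58.4 CPM (edgeR adjusted p = 2.08e-14) and the transferrin receptor gene Tfrc from 25.00 to 11.6 CPM (edgeR adjusted p = 3.49e-06).

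Against day 0 plus VC, proliferation genes were higher at day 4 plus VC in D/KO cells and lower in WT cells, and the WT direction turned with the baseline. In D/KO cells 18 of 18 were called higher, with Ccna2, Top2a and Mcm5 in front, Ccna2 from 15.7 to 49.8 CPM (edgeR adjusted p = 6.92e-12). In WT cells 0 were higher and 10 of 18 lower, where 22.0% of all genes were called lower, Plk1 from 15.2 to 3.86 CPM (edgeR adjusted p = 1.04e-10), with Ccnb1 and Ccna2 next. Mki67, a marker of cycling cells, averaged, in D/KO cells given VC, 20.6 CPM at day 0, 55.5 at day 2 and 102 at day 4, and 22.4, 14.4 and 18.5 CPM in the same WT groups. At WT day 0 without VC it averaged 5.53 CPM, and 16 of 18 proliferation genes were higher with VC at WT day 0, where 3 of the 10 nucleolar genes were. The 18 genes summed to 166 to 192 CPM at WT day 0, 393 to 449.7 at WT day 0 plus VC and 316 to 337 at WT day 4 plus VC. Against day 0 without VC, 13 of 18 were higher and 0 lower in WT cells at day 4 plus VC, and 18 of 18 higher in D/KO cells. The composition of the libraries changed as well. Col1a1, Col1a2 and Col3a1 held 15.3% to 18.4% of all counts at D/KO day 0 plus VC and 12.9% to 13.5% at WT day 0 plus VC, against 2.36% to 7.01% in the groups with doxycycline. With day 0 without VC as baseline, 10 of 10 nucleolar genes were called higher at D/KO days 2 and 4 plus VC, and 7 and 10 of 10 at WT days 2 and 4 plus VC, where in that order 23.3%, 26.6%, 19.5% and 20.3% of all genes were. Of 5 keratinocyte markers tested, 3 were higher and 1 lower at D/KO day 4 plus VC, where the 6 on the list summed to 293 to 430.3 CPM against 4.67 to 6.28 CPM at day 0 plus VC. Almost all of it was Krt14, Krt5 did not exceed 0.669 CPM, and the sum stayed at or below 16.9 CPM in WT cells. Of 10 fibroblast markers, 9 were lower and 1 higher at D/KO day 4 plus VC, and 7 lower and 2 higher at WT day 4 plus VC. They summed to between 181800 and 247400 CPM at D/KO day 0 plus VC and between 24670 and 25340 CPM at day 4 plus VC. The WT sums lay between 153800 and 167100 CPM and between 53030 and 62520 CPM on the same days. Of 4 skeletal muscle markers, 2 had no count in these libraries, and the list summed to 20.8 to 34.4 CPM at D/KO day 0, 4.75 to 9.75 at day 0 plus VC and 1.69 to 3.18 at day 4 plus VC, and to 1.82 to 3.01, 8.05 to 11.3 and 6.75 to 10.98 CPM in WT cells. The 4 endothelial markers summed to 180.1 to 217, 186 to 211 and 378 to 509 CPM at D/KO days 0, 2 and 4 plus VC. Between day 0 and day 4 the receptor gene Tek (8.92 to 112 CPM) and Pecam1 (72.9 to 247 CPM) were called higher and Cdh5 (103 to 70.8 CPM) lower. In the same WT groups the sum was 4.67 to 7.08, 94.7 to 102 and 98.1 to 116 CPM, nearly all of it Tek (106 CPM at day 4), and Cdh5 averaged 0.502 and Pecam1 0.0373 CPM.

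Across the 36 reprogramming libraries, which are not independent since they come in groups of 1 line, day and medium, the 10 genes followed each other to different degrees. As a description, the mean Pearson r of a gene's log2 CPM with the other 9 was 0.85 to 0.86 for Ncl, Npm1, Nolc1, Nop58 and Dkc1, 0.84 for Nop56, 0.81 for Fbl, 0.79 for Polr1b, 0.77 for Polr1a and 0.60 for Ubtf. Polr1a and Polr1b were closest to each other (r = 0.96), as were Npm1 and Fbl (r = 0.96). The genes most like the mean of the 10, among 15822 others, were Ftsj3 (r = 0.97), Mybbp1a (0.97), Pwp1 (0.95), Wdr43 (0.95), Limk2 (0.95), Rsl1d1 (0.94), Wdr12 (0.94), Pes1 (0.94), Nsun2 (0.93) and Pola1 (0.93), over 36 libraries. Of these, Ftsj3, Wdr43, Rsl1d1, Wdr12 and Pes1 stand in the processome or large subunit lists. The least like were Dkk3 (r = -0.97), Mvb12b (-0.95), Fhl2 (-0.93), Samd14 (-0.93) and Rasl11a (-0.93). By Spearman's rho, 4 of the 10 most like genes were the same. Myc itself had r = 0.76, Mki67 0.76, and the median gene -0.01.

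In order of mean level, D/KO cells with VC at day 2 came first and at day 4 second in all genes but Ubtf and Dkc1, and Dkc1 had the same 2 groups in reverse order. Their libraries overlapped each other in 8 of these 9 genes, Npm1 excepted. Next came WT cells with VC, from day 2 for Npm1 and Fbl and from day 4 for the other 7, without overlap with the D/KO groups in all but Polr1a and Polr1b. For Ubtf, neighbouring groups overlapped throughout the order. Between genes, levels were set side by side only per kilobase of the deposited exon length. On that scale D/KO day 0 libraries averaged 166.2 RPKM for Npm1, 28.4 for Ncl, 20.2 for Ubtf, 10.6 for Fbl, 10.3 for Nop56, 10.0 for Nolc1, 4.75 for Nop58, 4.67 for Dkc1, 4.46 for Polr1a and 3.43 for Polr1b. These lengths sum all annotated exons. Small nucleolar RNA genes lie within Ncl, Nop56, Nop58 and Dkc1, and 690 bases of Fbl match Tulp4 at 99.6% identity, so reads could be shared there.

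The TGFb inhibitors went with lower levels of some of the genes in D/KO cells. Against control, 4 of 10 were lower with Repsox (9.73% of all genes tested were called lower), 5 with Vactosertib (8.70%), 5 with A83-01 (13.9%) and 1 with the BMP receptor inhibitor DMH-1 (2.90%), and 0 of 10 were higher with any of them. The 4 comparisons share the 3 control libraries. Ncl, Nop56, Nop58 and Nolc1 were called with each of Repsox, Vactosertib and A83-01, and Dkc1 with Vactosertib and A83-01.

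Nop56 read 37.6, 37.4 and 32.9 CPM in control, 22.1, 27.4 and 20.05 with Repsox, 22.1, 22.9 and 22.7 with Vactosertib, 24.3, 22.7 and 21.7 with A83-01 and 28.7, 27.3 and 32.7 with DMH-1, with log2 fold changes of -0.63 (edgeR adjusted p = 0.00105), -0.67 (0.000731), -0.65 (0.000545) and -0.28 (0.224) in that order. Every inhibitor library lay below every control library of this box C/D scaffold gene. Nolc1 read 33.8, 39.4 and 37.8 CPM in control, 22.4, 14.5 and 22.1 with Repsox, 20.4, 25.9 and 20.5 with Vactosertib, 28.7, 23.9 and 23.9 with A83-01 and 23.3, 27.6 and 29.4 with DMH-1, with log2 fold changes of -0.91 (edgeR adjusted p = 0.000321), -0.73 (0.003), -0.54 (0.0163) and -0.47 (0.0929) in that order. The lowest Nolc1 value was in Repsox library 2, which also stood apart in ribosomal protein counts, and all inhibitor libraries lay below control. Ncl read 305, 282 and 272 CPM in control, 194, 184 and 184 with Repsox, 149, 190.2 and 194 with Vactosertib, 245, 227 and 213 with A83-01 and 211, 208 and 235 with DMH-1, with log2 fold changes of -0.61 (edgeR adjusted p = 0.000202), -0.69 (6.83e-05), -0.33 (0.0242) and -0.40 (0.0241) in that order. Ncl was the 1 gene called with DMH-1. Dkc1 read 17.0, 16.8 and 16.7 CPM in control, 14.0, 12.6 and 12.5 with Repsox, 12.3, 11.9 and 10.8 with Vactosertib, 14.3, 9.96 and 11.6 with A83-01 and 13.5, 10.9 and 14.4 with DMH-1, again all below control, with a call at Vactosertib (edgeR adjusted p = 0.00848) and A83-01 (edgeR adjusted p = 0.00895). Nop58 went from a mean of 41.8 CPM in control to 31.4 with Repsox, 33.1 with Vactosertib, 33.1 with A83-01 and 36.3 with DMH-1.

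The other 5 genes were not called with any inhibitor. Npm1 read 524, 413 and 423 CPM in control and 337, 262 and 303 with A83-01, without overlap but with a spread between libraries that left the adjusted p at 0.107 (edgeR). Its Repsox libraries read 298, 516 and 308 CPM, the second again standing apart. Fbl had log2 fold changes from -0.49 to -0.14, Polr1a from -0.31 to -0.24, Polr1b from -0.14 to 0.11 and Ubtf from -0.16 to 0.20. By library totals, which moved the median of all genes by 0.15 on the log2 scale, A83-01 had 2 of 10 called, Nop56 lower and Ubtf higher, and DMH-1 had 0. Without the expression filter 2 were lower with A83-01, Nop56 and Nolc1, 3 with Vactosertib and 0 with DMH-1. Leaving out A83-01 library 2 left 1 of 10 called with A83-01, leaving out control library 1 or A83-01 library 3 left 3, and the DMH-1 count was 0 without control library 1 or 2 or DMH-1 library 1 or 2. Nop56, Ncl and Nolc1 with Repsox and with Vactosertib, and Nop56 with A83-01, were called in every alternative. No count changed by over 1.5 times without Repsox library 2.

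Compounds were compared directly at matched dose in 2 pairs, with p-values adjusted over all genes tested. Between Repsox and Vactosertib at 0.1 µM, 0 of 10 genes were called by edgeR or DESeq2 and 0 had an unadjusted p under 0.05, and 0.00% of all genes tested (0 genes, 347 at an unadjusted p under 0.05) were called. The log2 difference was 0.04 for Nop56 (95% interval -0.21 to 0.29, from the s.e.) and -0.18 for Nolc1 (-0.50 to 0.14). Between A83-01, which targets TGFb receptors, and DMH-1, which targets BMP receptors, at 1 µM, 1 of 10 was lower with A83-01 (10.8% of all genes tested were). That gene was Nop56 (log2 fold change -0.37 ± 0.13 s.e., edgeR adjusted p = 0.0472), and its call was lost without any 1 of the 6 libraries, without the expression filter and by library totals, which called Ubtf, higher with A83-01, in its place. The other 9 differed by -0.29 to 0.24 on the log2 scale, Ubtf being 1.18-fold higher with A83-01 (edgeR adjusted p = 0.0876) with no overlap between libraries.

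Beside these values, Myc fell with every inhibitor, from 55.8 ± 2.61 CPM in control to 19.3 ± 0.697 with A83-01, 25.3 ± 3.16 with Vactosertib, 25.5 ± 0.984 with Repsox and 35.7 ± 2.59 with DMH-1. Mycn, its paralog, rose from 0.976 CPM to between 2.13 CPM with DMH-1 and 3.55 CPM with Repsox. With A83-01, 10 of 40 large subunit genes were lower and 2 higher, 9 of 36 processome genes were lower and 0 higher, and 3 of 82 ribosomal protein genes were lower and 0 higher, beside 13.9% of all genes tested called lower. Ddx21, a nucleolar helicase, went from 77.2 to 40.5 CPM (edgeR adjusted p = 1.53e-06), with Gnl3 and Nop2 next, and in the processome list Rrp12, Wdr43 and Pno1 were in front. Of the 13 further snoRNP genes 1 was higher and 0 lower, and it was Znhit6, from 59.0 to 136 CPM (edgeR adjusted p = 4.14e-05). Of the 13 further RNA polymerase I genes only Taf1d was called, from 11.8 to 4.67 CPM (edgeR adjusted p = 0.000288). Of 23 other Myc-responsive genes 8 were lower, led by Tfrc, Shmt2 and Odc1. Proliferation genes were lower in 14 of 18 with A83-01, led by Top2a, Mcm5 and Bub1, in 9 with Vactosertib, 5 with Repsox and 4 with DMH-1. Cell type markers moved as well. The 10 fibroblast markers summed to 75380 to 82050 CPM in control, 32750 to 42670 with Repsox, 43160 to 46890 with Vactosertib, 36730 to 39040 with A83-01 and 65620 to 83500 with DMH-1, and 6 of 10 were lower and 1 higher with each of Repsox, Vactosertib and A83-01. The 4 endothelial markers summed to 239.7 to 288 CPM in control and 106 to 143 CPM with A83-01, where Pecam1, Cdh5 and Kdr were lower and Tek higher, and only Tek was called, higher, with the other inhibitors. The 4 skeletal muscle markers summed to 10.2 to 12.6 CPM in control and to 5.99 to 7.27 CPM with A83-01, and the 6 keratinocyte markers to 2.05 to 3.60 and 1.77 to 2.56 CPM. The part of these in the levels of the nucleolar genes was not tested.

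Between D/KO and WT tail tip control cells, 2 of 10 genes were called where 34.6% of all genes were called in either direction. Nop56 was 1.33-fold higher in D/KO cells (edgeR adjusted p = 0.0157), a call lost without WT tail library 2 or D/KO control library 1 or 2. Ubtf read 117, 115 and 119.6 CPM in D/KO and 160.2, 159 and 183 CPM in WT libraries (log2 fold change -0.51 ± 0.10 s.e., edgeR adjusted p = 0.00026). At day 0 of the reprogramming table it differed by -0.06 ± 0.13 s.e., between lines that also differ in sex and age. Ubtf was also the gene with the clearest difference between skin and tail tip cells of WT mice, at 98.6, 103 and 99.1 CPM in skin (log2 fold change -0.74 ± 0.10 s.e., edgeR adjusted p = 4.25e-06). Nop58 was the other of 2 genes called there, lower in skin by 0.38 on the log2 scale, beside 34.2% of all genes in either direction. Skin control library 1 read 941 CPM of Npm1 against 382 and 385 in the other two, and both calls remained without it. Mki67 averaged 62.9 CPM in skin and 6.08 CPM in tail tip cells. Marker lists differed as well, and their part in these differences was not tested. The 4 endothelial markers summed to 239.7 to 288 CPM in D/KO control, 57.7 to 75.8 in WT tail tip and 116 to 209 in skin libraries. In the same order the 6 keratinocyte markers summed to 2.05 to 3.60, 14.7 to 17.6 and 3.09 to 4.29 CPM, the 4 skeletal muscle markers to 10.2 to 12.6, 2.09 to 3.77 and 57.4 to 84.1 CPM, and the 4 leukocyte and macrophage markers to 4.44 to 5.07, 3.21 to 5.07 and 12.9 to 15.2 CPM.

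The WT 4F cells labelled TGFB have no control of their own line in their table, and their levels are given with no test. They had the highest mean of the 8 groups of that table for 8 of the 10 genes, the lowest for Ubtf, and a middling one for Npm1 (430.7 CPM). The share of all genes with their highest mean in this group was not counted. Nolc1 read 73.3, 75.4 and 80.0 CPM, above every library of the other groups, and Nop56 read 68.3, 68.0 and 68.7 CPM. Polr1a read 75.4, 71.6 and 70.2 CPM and Ubtf 72.7, 73.2 and 77.6 CPM. For the same line at day 0 in the reprogramming table, scaled separately, the means were 38.0 CPM for Nolc1, 32.2 for Nop56, 37.9 for Polr1a and 137 for Ubtf. Myc averaged 84.1 ± 3.60 CPM and Mki67 2.26 ± 0.256 CPM in the TGFB-labelled libraries.

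**Figure D5:**
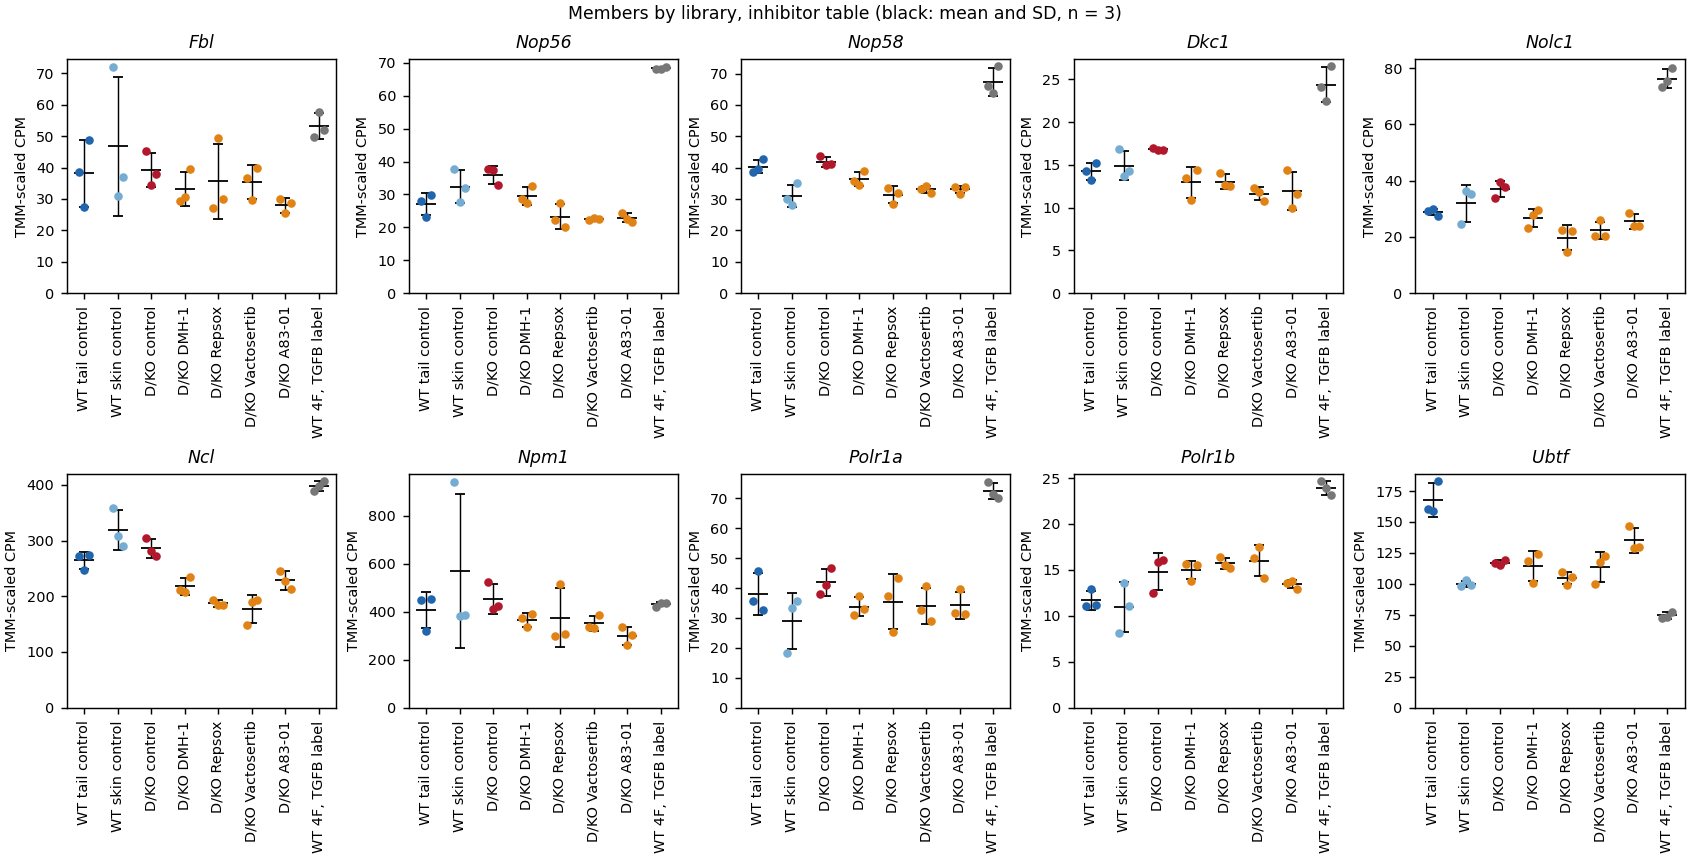
TMM-scaled CPM (y axis, from 0) of each of the 10 genes in the 24 libraries of the inhibitor table, by group (x axis); colored points are libraries, black bars are mean and s.d. (n = 3). For Nop56, Nolc1 and Dkc1 all 12 inhibitor libraries lie below the 3 D/KO control libraries, and the 3 TGFB-labelled libraries lie above every other library in these genes. Neither was counted over all genes.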

How the data were processed

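RNA was sequenced from 60 libraries of cultured mouse fibroblasts, 36 for reprogramming and 24 for the inhibitors, each set in a table of its own. The authors deposited unnormalized gene counts, made with FastQC, Trim Galore, HISAT2 and featureCounts of Subread on genome build GRCm39, and the deposited tables also give a gene length as summed exon bases. Tool versions, strandedness, the handling of multimapping reads and the unit counted (read or fragment) are not given in the sources used here, so reads of overlapping genes could not be separated.

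TMM scaling was done with edgeR 4.0.16 in R 4.3.3, after filtering with filterByExpr (minimum count 10, minimum total 15). Each table was fitted once over all its groups with edgeR's quasi-likelihood test, two-sided, with Benjamini-Hochberg adjustment over all genes of a comparison, with 0.05 as the threshold. Groups follow the sample labels. Groups with doxycycline were compared with day 0 of the same line and medium, and inhibitor groups with D/KO control. The difference between lines is an interaction contrast. Library totals give the depth, and differences between libraries beyond counting noise, not counting, limit the precision: edgeR's common coefficient of variation was 0.132 for reprogramming and 0.195 for the inhibitors. RPKM is TMM-scaled CPM per kilobase of the deposited length. Whether libraries of different groups overlapped was counted for the members and not over all genes. The scripts were tested on simulated data.

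Alternatives were DESeq2 1.42.0 as the test, its size factors, library totals alone, no filter, at least 10 counts in every library, only the groups compared, 18 inhibitor libraries without the skin and TGFB-labelled groups, day 0 without VC as baseline, Spearman's rho, and fits that each dropped 1 library. That baseline was fitted for the doxycycline changes with VC and not for the differences between lines. The wider window for CACGTG was chosen after the shorter one had been read. The members and the gene lists were chosen with earlier results of these data known. Named genes are the 10 members, the 3 genes of each list with the lowest adjusted p at day 4 plus VC in either line and with A83-01, the 10 genes most like and the 5 least like the mean of the members, and Ercc1, the reprogramming factors, Mki67, Mycn and marker genes. Promoter sequences are from RefSeq, and introns from the GRCm39 genome with its GENCODE annotation. A marker list is not reported here.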

Additional observations from a re-analysis of the deposited data

Results flagged for a closer look

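Groups of 3 libraries are too small for a test of single outlying values, so none was made. The change with doxycycline differed between D/KO and WT cells, by the test of the difference itself in edgeR, in 15 cases. Without VC this was Npm1 at day 4, whose log2 fold change was 0.64 larger in D/KO cells. With VC at day 2, the D/KO change was larger by 0.75 for Npm1, 0.53 for Fbl, 0.78 for Nop56, 0.85 for Nop58, 1.12 for Dkc1, 0.78 for Nolc1, 0.93 for Polr1a and 1.05 for Polr1b on the log2 scale. With VC at day 4 it was larger by 0.67 for Npm1, 0.60 for Fbl, 0.45 for Nop58, 0.56 for Dkc1, 0.66 for Polr1a and 0.50 for Polr1b. Line, sex and age change with the genotype and cannot be told apart. The differences with VC are from day 0 plus VC and were not fitted from day 0 without VC.

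The WT 4F cells labelled TGFB entered no comparison. In them 8 genes had levels above every WT tail tip control library, with means of 398 CPM for Ncl, 53.2 CPM for Fbl, 68.3 CPM for Nop56, 67.4 CPM for Nop58, 24.4 CPM for Dkc1, 76.2 CPM for Nolc1, 72.4 CPM for Polr1a and 23.9 CPM for Polr1b. The difference was not tested, since their line and age differ from those of the tail tip cells. The share of all genes that lay above those libraries was not counted.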

How the results depend on the processing

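No paired analysis was possible because the labels give running library numbers only, with no replicate numbers shared between groups. Counts of genes called, of the 10, changed by over 1.5 times as follows, and the cause was not tested. With DESeq2 size factors, WT day 2 had 1. With library totals only, D/KO day 2 had 9, D/KO day 4 had 4, VC at day 0 had 3 in D/KO and 5 in WT cells (1 higher and 4 lower, the opposite of the 3 higher above), D/KO against WT at day 0 had 2, DMH-1 had 0, A83-01 had 2 (1 higher and 1 lower), A83-01 against DMH-1 had 1 in the opposite direction and D/KO against WT tail tip control had 4 (3 higher and 1 lower). With that scaling the median log2 fold change of all genes was up to 0.377 in size, and over 0.1 in size in 18 comparisons. With the DESeq2 test, A83-01 against DMH-1 had 2 (1 higher and 1 lower). With no filter, D/KO day 4 had 1, WT day 2 had 1, WT day 4 against day 2 with VC had 3, Vactosertib had 3, DMH-1 had 0, A83-01 had 2, A83-01 against DMH-1 had 0 and D/KO against WT tail tip control had 1. With only the groups compared, D/KO day 4 had 1, WT day 2 had 0, WT day 4 had 6 (5 higher and 1 lower), the difference between lines at day 4 with VC had 3, DMH-1 had 2 and skin against tail tip had 1.

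Leaving out 1 library at a time gave these lowest and highest counts. In D/KO cells they were 3 and 6 at day 2, 1 and 2 at day 4, 9 and 10 at day 2 with VC, 9 and 9 at day 4 with VC, 0 and 2 for day 4 against day 2, 0 and 0 for the same with VC, and 10 and 10 for day 4 against day 2 with VC. For VC in D/KO cells they were 0 and 2 (1 higher and 1 lower) at day 0, 9 and 9 at day 2, and 9 and 10 at day 4. In WT cells they were 0 and 2 at day 2, 2 and 3 at day 4, 5 and 7 at day 2 with VC, 8 and 9 at day 4 with VC, 2 and 4 for day 4 against day 2, and 2 and 5 for the same with VC. For VC in WT cells they were 2 and 3 at day 0, 4 and 4 at day 2, and 8 and 9 at day 4. For the difference between lines they were 0 and 0 at day 2, 1 and 1 at day 4, 7 and 9 at day 2 with VC, and 3 and 6 at day 4 with VC, and for the lines at day 0, 2 and 5. For the inhibitors they were 4 and 4 with Repsox, 4 and 5 with Vactosertib, 0 and 1 with DMH-1, 1 and 5 with A83-01, 0 and 0 for Repsox against Vactosertib and for A83-01 against DMH-1, 1 and 2 for D/KO against WT tail tip control, and 2 and 3 for skin against tail tip.

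Signs reversed in genes that were not called. Polr1a at WT day 2 (0.01 on the log2 scale) was -0.0067 with DESeq2 size factors and -0.0068 with the DESeq2 test. Nop56 at D/KO day 4 (-0.02) was 0.15 with library totals and 0.0066 with only the groups compared. With 1 library left out, lowest and highest values at D/KO day 4 were -0.0591 and 0.239 for Ncl, -0.0984 and 0.0217 for Nop56, -0.0402 and 0.189 for Polr1a, and -0.0395 and 0.354 for Ubtf. At WT day 2 they were -0.0284 and 0.132 for Nop58 and -0.0457 and 0.0661 for Polr1a. At WT day 4 they were -0.114 and 0.0048 for Fbl, -0.0569 and 0.0782 for Nop56, and -0.0787 and 0.0011 for Nop58. Of the remaining log2 fold changes of the 10 genes apart from left-out libraries, 1020 kept sign and side of the threshold, 25 became called and 41 lost their call. The mean of the 10 shared 4 of its 10 most like genes between Pearson's r and Spearman's rho. The 9 D/KO calls with VC held in every alternative run.

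In pathway lists, counted with those of the 10 genes they hold, the larger of the higher and lower counts changed side as follows. With library totals the calls were 4 for snoRNP genes at D/KO day 4, 11 for other Myc-responsive genes at WT day 4 with VC and 3 for snoRNP genes with A83-01, and with only the groups compared 1 for snoRNP genes at D/KO day 4. With day 0 without VC as baseline they were 6 for the Myc and Max network at D/KO day 2 with VC, 13 for proliferation genes at WT day 2 and 13 at WT day 4 with VC, and 15 for other Myc-responsive genes at WT day 4 with VC. With 1 library left out, lowest and highest counts were 1 and 20 for ribosomal proteins at D/KO day 4, 2 and 7 for other Myc-responsive genes at D/KO day 2, 5 and 7 for the same at WT day 2 with VC, and 0 and 2 for large subunit genes with DMH-1.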
